A study of Mus musculus with 14 samples.

Results

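The metzincin proteases and their tissue inhibitors were followed through cultured mouse small cell lung cancer cells. The set was taken by symbol from the gene count table: every symbol that begins with Mmp, Adam or Adamts and a number, the ADAMTS-like genes (Adamtsl), and Timp1 to Timp4. It holds 84 of 32926 symbols, with 23 matrix metalloproteinases (MMPs), 33 ADAMs, 19 ADAMTS proteases, 5 ADAMTS-like genes and 4 tissue inhibitors of metalloproteinases (TIMPs). All 84 had coordinates in the GENCODE M21 annotation of mm10.

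Messenger RNA was sequenced in 14 libraries of cells that the labels call mouse small cell lung cancer lines from lung tumours of adult mice of mixed strain. Every group carries CGRPCreER/+, a Cre that is made where the calcitonin gene is active, which in lung means neuroendocrine cells, and floxed Rb and P53 (Rbf/f;P53f/f), and the labels say that the mice received TM after 2 months. All cells grew in Hites medium. The groups were neuroendocrine cells (NE, n = 3), non-neuroendocrine cells (Non-NE, n = 3), and cells labelled OE YAP5SA at days 0, 3, 7 and 21 (n = 2 for each day). The YAP5SA libraries other than day 0 replicate 1 add Rosa26rtTA and Tet-onYAP5SA, a switchable version of YAP, a coactivator of transcription, in which Hippo signalling can no longer block the protein. The labels of day 0 replicate 1 name neither of these alleles, and no library without them is in the groups of days 3, 7 and 21, so time in culture and YAP5SA cannot be told apart. The number of mice or lines behind a group is not given, and nothing says that replicates were separate cultures, so the p-values measure the spread between these libraries, which may be technical.

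MMPs are zinc proteases that cut collagens, other matrix proteins and cell surface proteins, and most are secreted or membrane-anchored as inactive precursors. ADAMs are membrane proteases that release growth factors, cytokines and adhesion proteins from the cell surface, and ADAMTS proteases are secreted relatives that process procollagens and cut proteoglycans. TIMPs bind the active site of MMPs and of some ADAM and ADAMTS proteases, and ADAMTS-like proteins share the ancillary domains of ADAMTS proteases but lack the protease domain.

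Library totals ran from 6730816 to 10659524 counts. Levels are CPM, the count scaled by TMM to a common library size, so 1 read stood for 0.0927 to 0.161 CPM. In none of 32926 genes did NE replicate 2 exceed day 0 replicate 1, of which it held 85.7% of the counts, with a spread of 1.02 times that of random thinning, so both may hold the same reads. They never entered the same fit except in the fit of all 14 libraries tried as an alternative, and the counts of called genes are also given without one of them. The summed level of 7 neuroendocrine markers was 2437 to 3975 CPM in NE, 1.12 to 17.1 in Non-NE, 3747 to 3944 at day 0 and 518 to 520.2 at day 21, although Calca itself, the calcitonin gene, was at 0 in every group except day 21. Of 7 fibroblast markers 6 had counts in NE, 6 in Non-NE and 6 at day 21. A mean of 1 CPM was reached by 2 in NE, 5 in Non-NE and 3 at day 21. Their sum was 269.6 to 1252 CPM in Non-NE against 1.93 to 6.94 in NE. It was 5.95 to 6.40 CPM at day 0 and 43.4 to 48.7 at day 21. Thy1 was at 0 in Non-NE and Postn at 0 at day 21. The summed level of 4 epithelial markers was 2110 to 2996 CPM in NE and 4.82 to 31.2 in Non-NE. That sum was 2990 to 3090 CPM at day 0 and 3015 to 3091 at day 21. Of 9 leukocyte markers in the table, the pan-leukocyte gene Ptprc was at 0 on every YAP5SA day, and the sum was 5.29 to 42.2 CPM in NE, 6.42 to 11.5 in Non-NE, 6.97 to 7.53 at day 0 and 114 to 137 at day 21. Most of the day 21 sum was Csf1r, the CSF1 receptor gene, with 103.5 and 126 CPM there against 0 at day 0, and the other 8 summed to 10.7 to 11.1 CPM at day 21. Lyz2 alone made up 40.3 CPM of the highest NE sum. The part of other cell types in the results was not tested. In bulk RNA, fewer cells of a type and less RNA per cell cannot be told apart.

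Of the 84 genes, 14 had no count in any library, 12 had 1 to 10 counts in all, and 39 reached a mean of 5 CPM in at least 1 group. The silent genes were 12 ADAMs, Adamts20 and Mmp1a. GENCODE M21 lists Mmp1a as a polymorphic pseudogene. Of the 21 ADAMs known mainly from testis and epididymis, 12 had no count and none reached 5 CPM. A count of 0 over a group allows up to 3 counts over that group. The heat map of levels by library covers the 39 genes above 5 CPM and Timp4.

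**Figure D1:**
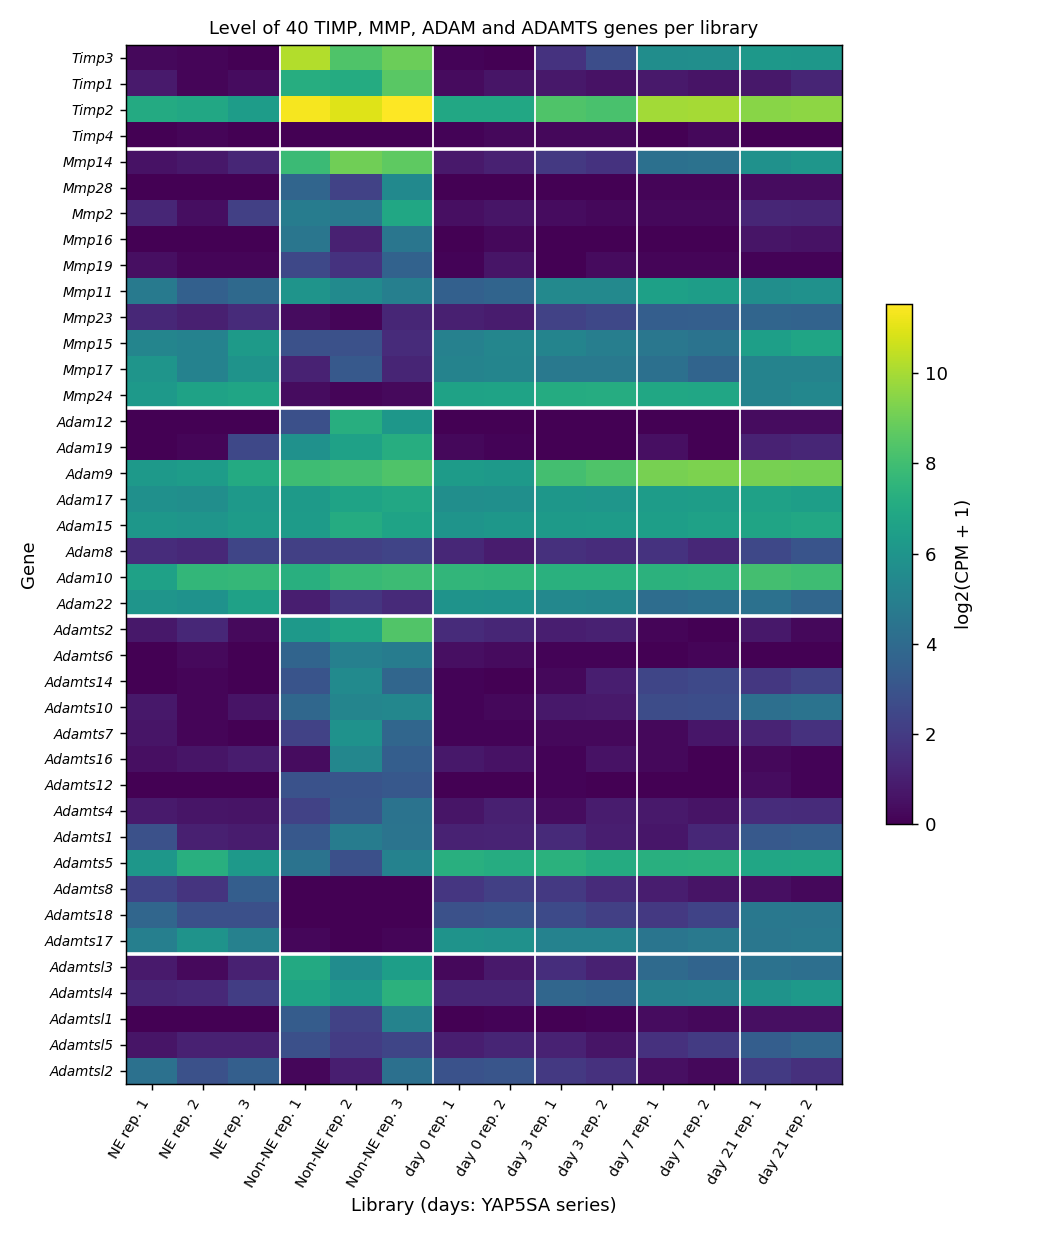
Level of 40 genes as log2(CPM + 1), 1 column for each of the 14 libraries and 1 row for each gene, in blocks of TIMPs, MMPs, ADAMs, ADAMTS proteases and ADAMTS-like genes, with each block ordered by Non-NE minus NE. Timp2 is brightest in Non-NE, followed by days 7 and 21, Timp1 is bright in Non-NE alone, and Mmp24 and Adamts17 are dimmest in Non-NE.

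Most of the genes that could be tested differed between Non-NE and NE cells. After the filter on low counts 39 of the 84 genes could be tested, and 24 rose and 8 fell in Non-NE at an adjusted p under 0.05 (edgeR quasi-likelihood F test, Benjamini-Hochberg over 12966 genes). Over all genes tested, 42.8% were called, 20% as higher and 22.8% as lower. The median log2 change was 4.02 for the 39 genes and -0.02 over all genes. A gene near 0 in one group passed the filter only if it was high in the other, so the count and the median carry that selection and describe the tested genes only. Without NE replicate 2, 24 rose and 7 fell.

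Over the YAP5SA days more genes rose than fell in each comparison, both in the set and over all genes tested. Of 34 genes that could be tested over the 8 libraries, 14 rose and 7 fell at day 3 against day 0, where 48.6% of 13996 genes were called, 26.2% higher and 22.4% lower. At day 7 against day 0, 16 rose and 9 fell beside 71.0% of all genes called, 37.2% higher and 33.8% lower. At day 21 against day 0, 23 rose and 8 fell beside 71.7% called, 37.7% higher and 34.0% lower, with a median log2 change of 1.67 against 0.02 over all genes. From day 3 to day 7, 13 rose and 9 fell beside 55.6% called (29.5% higher and 26.1% lower). From day 7 to day 21, 20 rose and 4 fell beside 50.3% called (26.1% higher and 24.2% lower). The same filter selects genes here. Without day 0 replicate 1, 11 rose and 6 fell at day 3, 14 and 9 at day 7, and 23 and 8 at day 21, each against the other day 0 library.

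Timp1, Timp2 and Timp3 rose in Non-NE, and Timp2 and Timp3 also rose over the YAP5SA days. Timp2 (chr11:118301069-118355740, minus strand), which inhibits MMPs broadly and also helps MMP14 to activate pro-MMP2, stood at 132, 120.3 and 82.7 CPM in the NE libraries and 2623, 2024 and 2952 CPM in the Non-NE libraries. It had 121 and 121 CPM at day 0, 322 and 297 at day 3, 987 and 1006 at day 7 and 720.3 and 753 at day 21. All Non-NE libraries lay above all others, and within the YAP5SA days the pairs of libraries did not overlap, with the highest pair at day 7. Timp2 rose in Non-NE (log2 change 4.48, SE 0.30, adjusted p = 8.71e-05) and at days 3 (log2 change 1.34, SE 0.08, adjusted p = 2.49e-13), 7 (log2 change 3.06, SE 0.08, adjusted p = 4.95e-21) and 21 (log2 change 2.64, SE 0.08, adjusted p = 7.07e-20) against day 0 by edgeR. From day 7 to day 21 it fell by 0.42 on the log2 scale (SE 0.07, adjusted p = 3.37e-05).

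Timp3 (chr10:86300372-86349506, plus strand) encodes the matrix-bound TIMP, which also inhibits ADAM17 and aggrecan-cutting ADAMTS proteases. NE libraries had 0.193, 0.110 and 0 CPM and Non-NE libraries 1161, 322 and 493 CPM. The YAP5SA libraries had 0.0942 and 0 CPM at day 0, 2.25 and 5.65 at day 3, 49.6 and 50.2 at day 7 and 70.7 and 68.6 at day 21. Every step from day 0 to day 21 was upward without overlap, and Non-NE replicate 1 was the highest of the Non-NE libraries. With 3 counts over the NE libraries, the ratio of Non-NE to NE was 5861 (95% counting interval 2005 to 28420, adjusted p = 0.000123), and with 1 count at day 0 the ratio of day 21 to day 0 was 1490 (267 to 58880, adjusted p = 2.27e-18). The log2 change of 12.43 in Non-NE moved to 11.75 without Non-NE replicate 1 and to 13.23 without NE replicate 1. That of 10.23 at day 21 moved to 9.38 without day 0 replicate 2. Without day 0 replicate 1, which held the 1 count, day 21 was at least 250-fold higher against the floor of 3 counts over the group. Timp3 lies inside Syn3, which is on the other strand and overlaps 21.3% of the Timp3 exon bases, and Syn3 itself had 0.283 to 4.36 CPM in the 14 libraries. Strand was not stated for the counts.

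Timp1 (chrX:20870166-20874735, plus strand), a secreted TIMP, separated the Non-NE libraries from all others. Non-NE libraries had 144, 137 and 387 CPM, with replicate 3 above the other two, and NE libraries 0.771, 0.110 and 0.318 CPM. At days 0, 3, 7 and 21 the libraries had 0.283 and 0.557, then 0.685 and 0.463, then 0.715 and 0.510, then 0.668 and 1.26 CPM. Timp1 rose in Non-NE (log2 change 9.01, SE 0.77, adjusted p = 0.000242), with a log2 change of 8.35 without Non-NE replicate 3 and 9.90 without NE replicate 1. In the 8 YAP5SA libraries it did not pass the filter on low counts and was not tested. Timp1 lies inside Syn1, on the other strand and with no exon overlap, and Syn1 had 151, 148 and 189 CPM in NE against 1.77, 28.1 and 9.73 in Non-NE. Timp4 had 10 counts in 14 libraries and no library above 0.204 CPM.

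The change of each TIMP under YAP5SA was set against its change in Non-NE in 1 fit without NE replicate 2. Of 50 genes of the set that could be tested there, 10 were called higher and 7 lower, beside 32.8% of 14820 genes called, 21.2% higher and 11.6% lower. Without day 0 replicate 2, 9 were higher and 3 lower, and without day 0 replicate 1, 9 and 6. The median difference over all genes was 0.12 on the log2 scale, and over the 50 genes -0.87. Genes high in Non-NE alone, such as Timp1 and Adamts6, passed the filter of this fit but not that of the YAP5SA libraries. These counts and this median carry that selection and describe the tested genes only. Timp2 changed less under YAP5SA than in Non-NE by 1.96 on the log2 scale (difference -1.96, SE 0.31, adjusted p = 0.0011). Timp1 also did (difference -7.45, SE 1.41, adjusted p = 0.00296), moving to -6.82 without Non-NE replicate 3 and -8.23 without NE replicate 1 and losing the call without day 0 replicate 2 (adjusted p = 0.053). For Timp3 the difference was -2.33 with SE 3.96 (adjusted p = 0.706), so that a difference of several units either way was not detectable with the few counts at day 0 and in NE.

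**Figure D2:**
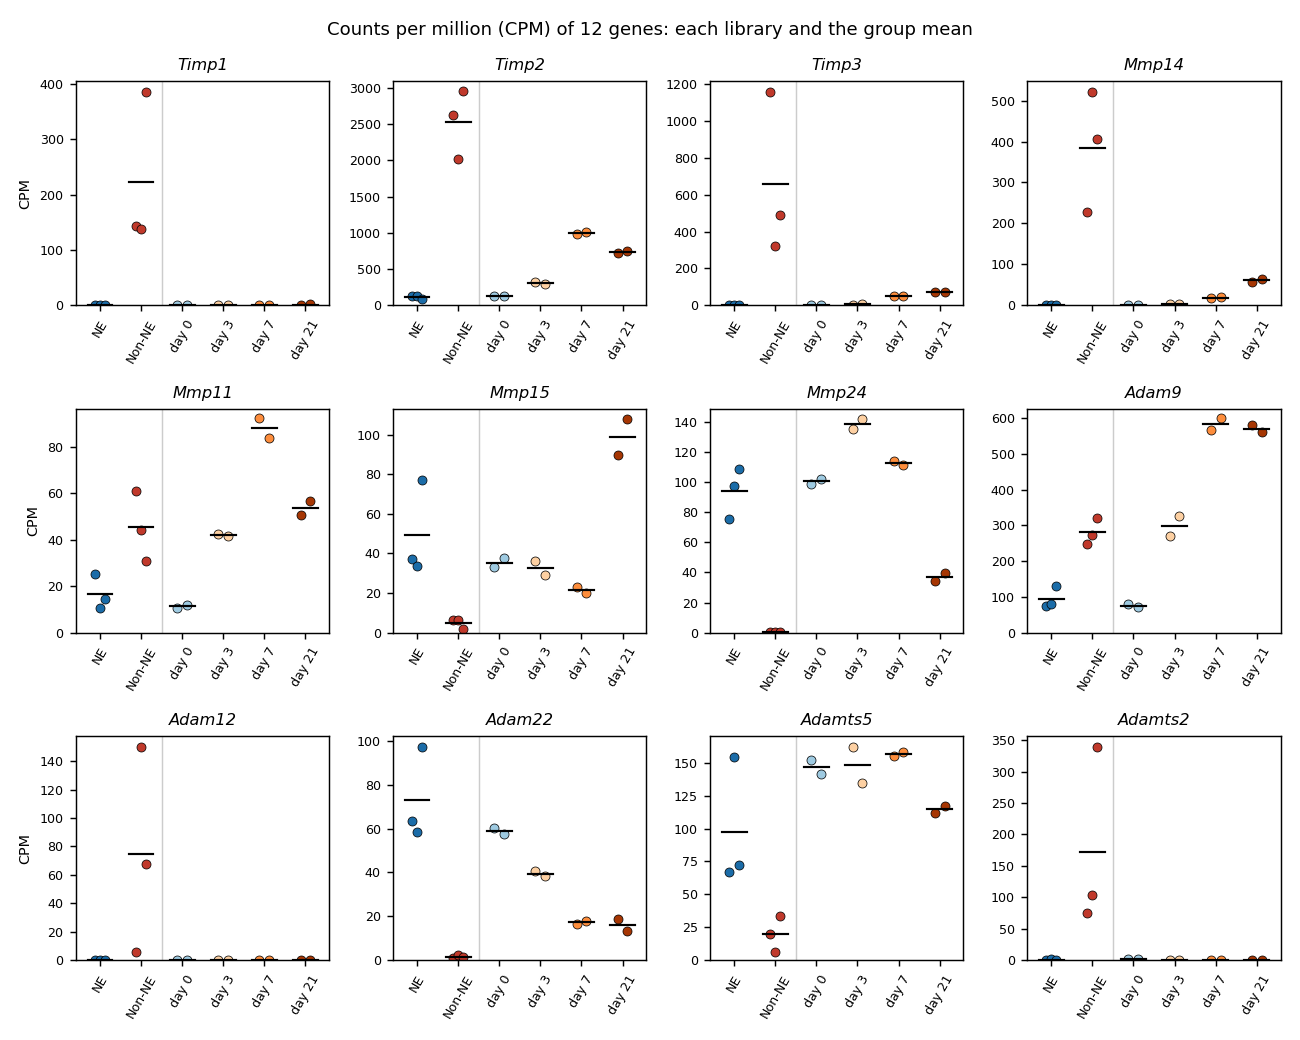
CPM of 12 genes in each library (points) with the group mean (bar), for NE, Non-NE and the 4 YAP5SA days, each panel on its own linear axis from 0. Timp1, Adam12 and Adamts2 are high in Non-NE alone, Mmp11 and Adam9 are highest at days 7 or 21, and Mmp24 is lowest in Non-NE.

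Among membrane-type MMPs, which are anchored at the cell surface, Mmp14 rose in Non-NE and the other 3 that could be tested there fell. Mmp14 (chr14:54431612-54445364, plus strand), the main pericellular collagenase and activator of pro-MMP2, had 0.482, 0.661 and 1.38 CPM in NE libraries and 228, 522 and 406 in Non-NE libraries. It had 0.753 and 1.11 CPM at day 0, 2.74 and 2.22 at day 3, 17.9 and 19.1 at day 7 and 55.99 and 64.8 at day 21. Each day stood above the day before without overlap, and the highest day 21 library stayed below the lowest Non-NE library. Mmp14 rose in Non-NE (log2 change 8.79, SE 0.55, adjusted p = 6.59e-05) and at day 21 (log2 change 6.02, SE 0.19, adjusted p = 1.63e-19). Its rise under YAP5SA was smaller than that in Non-NE (difference -2.71, SE 0.72, adjusted p = 0.0168). That call was lost without NE replicate 1 (-2.12, adjusted p = 0.0547) and without day 0 replicate 2 (-2.40, adjusted p = 0.101), and the difference was -3.61 without NE replicate 3.

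Mmp24 (chr2:155775342-155818366, plus strand), a membrane-type MMP known from neurons, had 75.4, 97.4 and 108 CPM in NE libraries and 0.321, 0.122 and 0.212 in Non-NE libraries. The YAP5SA libraries had 98.9 and 102 CPM at day 0, 135 and 142 at day 3, 114 and 112 at day 7 and 34.3 and 39.5 at day 21. It was close to 0 in Non-NE libraries and still expressed in all YAP5SA libraries, with the lowest level at day 21. Mmp24 fell by 8.73 on the log2 scale in Non-NE (SE 0.39, adjusted p = 2.59e-05) and by 1.42 at day 21 (SE 0.09, adjusted p = 1e-13), and the difference of the changes was 7.24 (SE 0.35, adjusted p = 3.71e-07). Its exons overlap BC029722 on the other strand over 13.6% of their bases.

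Mmp15, a membrane-type MMP of epithelia, had 37.4, 33.6 and 77.05 CPM in NE libraries and 6.26, 6.35 and 1.69 in Non-NE libraries. It had 32.96 and 37.8 CPM at day 0, 36.2 and 29.3 at day 3, 22.97 and 20.2 at day 7 and 89.7 and 108 at day 21. It fell in Non-NE by 3.41 on the log2 scale (SE 0.60, adjusted p = 0.00438) and fell from day 0 to day 7 by 0.70 (SE 0.13, adjusted p = 2.85e-05), then rose from day 7 to day 21 (log2 change 2.21, SE 0.12, adjusted p = 7.28e-14). Day 21 was above all other libraries, and the difference of the day 21 and Non-NE changes was called (5.09, SE 0.67, adjusted p = 0.000318; 4.47 without NE replicate 3).

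Mmp17, a membrane-type MMP held by a lipid anchor, had 64.3, 33.3 and 58.8 CPM in NE libraries and 1.12, 8.30 and 1.27 in Non-NE libraries. It had 34.3 and 37.3 CPM at day 0, 24.6 and 24.3 at day 3, 18.1 and 12.1 at day 7 and 34.1 and 35.00 at day 21, so day 21 overlapped day 0. Its fall in Non-NE was 3.89 on the log2 scale (SE 0.82, adjusted p = 0.00907), and without Non-NE replicate 2, the highest of the 3, the change was -5.43. Mmp16 had 0 CPM in all NE libraries, 21.8, 1.10 and 22.2 CPM in Non-NE and at most 0.572 CPM in a YAP5SA library, and it was not among the genes tested in Non-NE against NE. Mmp25 rose to 1.62 and 1.26 CPM at day 21 from 0 and 0.0929 at day 0 (adjusted p = 2.36e-05), with 1 count at day 0.

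Among secreted MMPs, Mmp11 and Mmp2 had counts in every library. Mmp11, a stromelysin-type MMP that is activated inside the cell, had 25.3, 10.7 and 14.3 CPM in NE libraries and 60.9, 44.3 and 30.7 in Non-NE libraries. In YAP5SA cells it had 10.5 and 12.1 CPM at day 0, 42.5 and 41.4 at day 3, 92.3 and 83.9 at day 7 and 50.5 and 56.5 at day 21. The days did not overlap, and day 7 was the highest. Mmp11 rose at day 7 (log2 change 2.97, SE 0.11, adjusted p = 6.49e-18) and at day 21 (log2 change 2.27, SE 0.12, adjusted p = 3.52e-15). Its rise in Non-NE (log2 change 1.40, SE 0.41, adjusted p = 0.0307) lost the call without NE replicate 2 (adjusted p = 0.0841), NE replicate 3 (0.0883), Non-NE replicate 1 (0.0798) or Non-NE replicate 2 (0.0642).

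The gelatinase gene Mmp2, whose product cuts denatured collagen, had 1.35, 0.330 and 3.60 CPM in NE libraries and 27.9, 24.04 and 116 in Non-NE libraries, where replicate 3 was the highest. It rose in Non-NE (log2 change 4.96, SE 1.01, adjusted p = 0.008), with a log2 change of 3.85 without Non-NE replicate 3 and 6.0 without NE replicate 3. Its YAP5SA libraries had 0.377 and 0.557 CPM at day 0, 0.185 to 0.293 at days 3 and 7, and 1.34 and 1.26 at day 21. The call at day 21 (adjusted p = 0.0108) was lost without day 0 replicate 1 (adjusted p = 0.0971) or day 21 replicate 1 (0.0531). The other gelatinase gene, Mmp9, did not exceed 1.38 CPM in any library.

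Mmp23, a small MMP with an unusual transmembrane precursor, had 1.45, 0.991 and 1.69 CPM in NE libraries and 0.321, 0.122 and 1.38 in Non-NE libraries, with overlap and no call (adjusted p = 0.285). In YAP5SA cells it had 1.04 and 0.836 CPM at day 0, 3.82 and 4.63 at day 3, 10.01 and 10.2 at day 7 and 12.5 and 11.5 at day 21, and it rose at day 21 (log2 change 3.69, SE 0.25, adjusted p = 1.08e-12). The difference of these changes was 4.94 (SE 0.90, adjusted p = 0.00235), or 6.47 without Non-NE replicate 3. Mmp28 had no count in NE and 12.5, 3.78 and 42.95 CPM in Non-NE, at least 208-fold higher against the floor of 3 counts over the group (adjusted p = 0.00922), or 72.8-fold without Non-NE replicate 3 and 133-fold without NE replicate 1. No YAP5SA library exceeded 0.291 CPM. Mmp19 had 0.385, 0.110 and 0.106 CPM in NE, then 4.66, 2.20 and 11.2 in Non-NE (adjusted p = 0.00516) and at most 0.557 CPM in a YAP5SA library. Mmp19 shares 22.3% of its exon bases with Tmem198b on the other strand.

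A run of MMP genes lies beside Yap1 itself on chromosome 9. These 10 genes, with the collagenases Mmp1a, Mmp1b, Mmp8 and Mmp13, the stromelysins Mmp3 and Mmp10, the matrilysin Mmp7, the elastase Mmp12, and Mmp20 and Mmp27, lie 232 to 649 kb from Yap1, within 1 Mb, with the apoptosis inhibitor genes Birc2 and Birc3 in between. Mmp genes of this cluster are textbook targets of AP-1, a dimer of Fos and Jun proteins. The 55 bases around a match to TGANTCA, the pattern used here for the AP-1 core, are therefore shown for 7 of them. They are on the strand of the gene, with the match in capitals (RefSeq promoters, GRCm38.p6).
Mmp13, chr9:7272455-7272509, plus strand: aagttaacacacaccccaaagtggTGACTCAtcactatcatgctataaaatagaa
Mmp1b, chr9:7388089-7388143, minus strand: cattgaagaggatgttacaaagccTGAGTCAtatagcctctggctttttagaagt
Mmp3, chr9:7445752-7445806, plus strand: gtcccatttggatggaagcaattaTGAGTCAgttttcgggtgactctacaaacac
Mmp1a, chr9:7464044-7464098, plus strand: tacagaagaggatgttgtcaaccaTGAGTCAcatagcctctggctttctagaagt
Mmp10, chr9:7502255-7502309, plus strand: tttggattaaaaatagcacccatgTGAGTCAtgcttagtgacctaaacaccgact
Mmp20, chr9:7628112-7628166, plus strand: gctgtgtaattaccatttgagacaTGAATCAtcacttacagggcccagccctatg
Mmp7, chr9:7692003-7692057, plus strand: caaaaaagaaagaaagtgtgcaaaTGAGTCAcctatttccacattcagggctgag

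The cores of these 7 genes begin 35 to 95 bases before the start of transcription. That of Mmp20 reads TGAATCA, and those of the others read TGACTCA or TGAGTCA. With Mmp12, 8 of the 10 cluster genes held TGANTCA, read on both strands, in the 250 bases before a RefSeq start, and none held GGAATG, the core bound by TEAD factors through which YAP acts. Among the other 43 genes of the set with a promoter entry, 4 held TGANTCA, which reads TGAATCA in Adam20 and Adam25. Of 27025 genes with an entry, 7.82% held the AP-1 core and 14.4% the GGAATG core, against 22.6% and 5.66% of the 53 genes of the set with an entry. Of the 40 genes of the heat map, 14 had no entry. Of the other 26, 3.85% held the AP-1 core and 7.69% the GGAATG core. Each motif was counted on its own, so matches that share the letters TG count for both. A match is a run of letters and not a shown binding site.

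The cluster was expressed at a low level in every group. The summed level of the 10 genes was 0.551 to 0.847 CPM in NE, 0 to 9.03 in Non-NE, 0.743 to 0.848 at day 0, 3.71 to 6.16 at day 3, 1.74 to 2.14 at day 7 and 2.23 to 2.86 at day 21. Yap1 had 19.2, 8.26 and 11.5 CPM in NE, 131, 257 and 225 in Non-NE, 7.91 and 7.15 at day 0, 1241 and 1072 at day 3, 737 and 796 at day 7 and 208 and 219 at day 21, and these counts do not separate transgene from endogenous transcripts. Of the 329 counts of the cluster over all libraries, 213 were of the collagenase gene Mmp13, although Mmp3 held 52 of the 99 in Non-NE and Mmp13 20 of the 53 at day 21. Mmp13 had 0.753 and 0.743 CPM at day 0, 5.48 and 3.52 at day 3, 1.33 and 1.43 at day 7 and 1.05 and 0.873 at day 21. Mmp13 rose at day 3 (log2 change 2.55, SE 0.35, adjusted p = 1.32e-06), fell from day 3 to day 7 by 1.67 on the log2 scale (SE 0.32, adjusted p = 8.27e-05), and at day 21 was not called against day 0 (adjusted p = 0.498). In Non-NE it had 0, 4.64 and 0.212 CPM, so that 1 library held nearly all counts, and the stromelysin gene Mmp3 had 0, 3.54 and 2.43 CPM there. Mmp1a had no count in any library, and Mmp7, Mmp8, Mmp20 and Mmp27 had 1 count each in all 14.

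**Figure D3:**
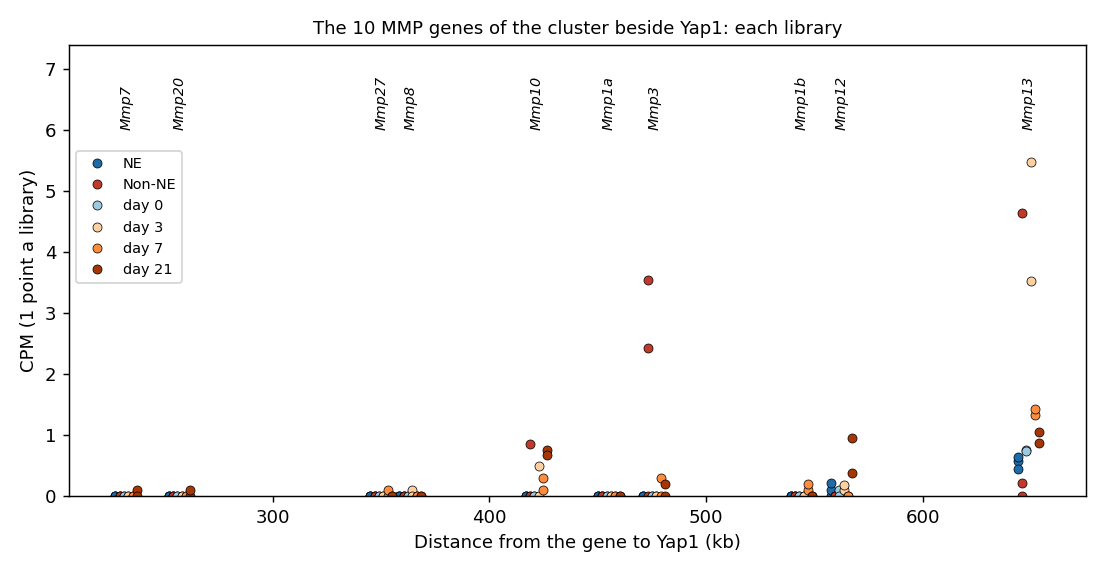
CPM of the 10 MMP genes of the cluster in each library (points, coloured by group) against the distance of the gene from Yap1 in kb, with the groups shifted slightly sideways. Mmp13, the gene farthest from Yap1, has counts in every group and its highest library at day 3, and the genes within 400 kb stay close to 0.

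The promoters of Timp1 and Mmp14 are shown as examples from the genes that rose in Non-NE. Mmp14 also rose over the YAP5SA days, where Timp1 did not pass the filter on low counts and was not tested. Each run is the 250 bases before the RefSeq start (GRCm38.p6, plus strand), with a match to GGAATG in capitals.
Timp1, chrX:20869916-20870165: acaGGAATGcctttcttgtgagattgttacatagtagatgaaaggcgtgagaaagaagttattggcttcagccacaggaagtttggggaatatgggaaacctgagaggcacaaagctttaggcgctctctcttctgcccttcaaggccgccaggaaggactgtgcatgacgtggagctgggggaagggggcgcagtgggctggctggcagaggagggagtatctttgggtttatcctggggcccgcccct
Mmp14, chr14:54431348-54431597: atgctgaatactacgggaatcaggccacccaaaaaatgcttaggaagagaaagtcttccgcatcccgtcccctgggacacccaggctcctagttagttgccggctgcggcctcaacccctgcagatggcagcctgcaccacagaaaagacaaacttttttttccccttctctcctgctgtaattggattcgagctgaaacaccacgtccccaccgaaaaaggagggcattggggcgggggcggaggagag

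Timp1 holds the GGAATG core 247 bases before its start and no AP-1 core, and Mmp14 holds neither in this window. Timp2 and Timp3 also hold neither. Adam19, which rose in Non-NE as well, holds both cores before 1 of its RefSeq starts, read on both strands. There the GGAATG core lies 32 bases and the AP-1 core 131 bases before the start. These are descriptions of the letters in these windows only.

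Among ADAM genes with a working protease domain, 7 could be tested in Non-NE (Adam8, Adam9, Adam10, Adam12, Adam15, Adam17 and Adam19), and 3 rose beside 20% of all genes. At day 21 Adam28 could be tested in place of Adam12, and of those 7 genes 6 rose and Adam28 fell, beside 37.7% of all genes higher and 34.0% lower. Adam10 (chr9:70678997-70780229, plus strand) and Adam17 (chr12:21323509-21373632, minus strand) encode the main sheddases, which cut Notch receptors, cadherins and growth factor precursors. Adam10 had 97.3, 195 and 205 CPM in NE against 151, 219 and 242 in Non-NE, overlapping and not called (adjusted p = 0.538), and Adam17 had 54.9, 51.4 and 74.2 CPM and 77.9, 101 and 119.8 (adjusted p = 0.0557). Adam17 passed the threshold without NE replicate 3 or Non-NE replicate 1. At day 21 Adam10 had 272 and 246 CPM against 193 and 186 at day 0 (log2 change 0.48, SE 0.07, adjusted p = 2.62e-06) and Adam17 95.3 and 87.4 CPM against 51.2 and 52.9 (log2 change 0.84, SE 0.08, adjusted p = 1.83e-09). These called changes are under 1 on the log2 scale.

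Adam9 (chr8:24949611-25016927, minus strand), a widely expressed ADAM, had 73.6, 80.7 and 129.9 CPM in NE libraries and 248, 272 and 321 in Non-NE libraries. The YAP5SA libraries had 79.1 and 71.8 CPM at day 0, 271 and 326 at day 3, 567 and 600.2 at day 7 and 581 and 561 at day 21. The day 3 libraries overlapped the Non-NE libraries, and those of days 7 and 21 lay above all Non-NE libraries. Adam9 rose in Non-NE (log2 change 1.54, SE 0.27, adjusted p = 0.00396), at day 3 (log2 change 1.97, SE 0.09, adjusted p = 2.45e-15) and at day 21 (log2 change 2.94, SE 0.09, adjusted p = 1.3e-19). The difference of the changes was 1.45 (SE 0.32, adjusted p = 0.00646), with the YAP5SA change the larger.

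Per length, by CPM per kilobase of exon union (RPKM), Adam10 had the highest mean of the 26 genes that reached 20 CPM in NE (33.7 RPKM), ahead of Timp2 (28.6) and Adam9 (23.0). In Non-NE the order was Timp2 (650.2 RPKM), Timp1 (251), Timp3 (80.8), Adam9 (68.2) and Mmp14 (64.6). At day 21 it was Timp2 (189), Adam9 (139) and Adam10 (52.7). By the longest transcript the first 3 were the same in each of these groups, and Mmp14 (119 RPKM) then passed Adam9 (69.4) in Non-NE.

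Adam12 and Adam19, ADAMs of muscle and mesenchyme, were high in Non-NE. Adam12 had no count in NE or at days 0, 3 and 7, 5.94, 150.0 and 67.8 CPM in Non-NE (adjusted p = 0.0104) and 0.286 and 0.291 CPM at day 21. Non-NE replicate 1 was far below the other 2 libraries. Adam19 had 0, 0.110 and 4.66 CPM in NE, then 55.6, 94.6 and 146 in Non-NE and 1.14 and 1.36 CPM at day 21. Adam19 rose in Non-NE (log2 change 5.92, SE 1.35, adjusted p = 0.0125), where NE replicate 3 held nearly all NE counts and the log2 change without it was 10.53, against 5.33 without NE replicate 1.

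Adam15, an ADAM with an integrin-binding motif, had 68.3, 63.1 and 78.95 CPM in NE libraries and 79.98, 135 and 101 in Non-NE libraries, with no overlap but no call (adjusted p = 0.0979). It rose at day 21 (log2 change 0.83, SE 0.08, adjusted p = 2.32e-09), and an antisense gene on the other strand overlaps 20.6% of its exon bases. Adam8, an ADAM of myeloid cells, had 1.73, 1.54 and 4.34 CPM in NE, 3.53, 3.54 and 4.13 in Non-NE and 1.41 and 0.836 at day 0 against 4.58 and 6.88 at day 21 (log2 change 2.36, SE 0.32, adjusted p = 4.37e-07). Of the 9 leukocyte markers, 4 had counts at day 0 and 8 at day 21. Csf1r was higher at day 21, and the other 8 summed to 6.97 to 7.53 CPM at day 0 and 10.7 to 11.1 at day 21. Ptprc was at 0 on both days, and Lyz2 went from 4.90 and 4.92 CPM at day 0 to 1.43 and 1.07 at day 21. The part of such cells in the level of Adam8 was not tested. Adam28 fell at day 21 (adjusted p = 0.00143) from 1.60 and 1.58 to 0.477 and 0.291 CPM.

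Adam22 (chr5:8072352-8368160, minus strand) has no active site and binds LGI proteins at synapses. It had 63.6, 58.5 and 97.3 CPM in NE libraries and 0.964, 2.44 and 1.59 in Non-NE libraries, and 60.4 and 57.4 CPM at day 0, 40.8 and 38.3 at day 3, 16.6 and 18.1 at day 7 and 18.8 and 13.2 at day 21. Adam22 fell in Non-NE by 5.46 on the log2 scale (SE 0.43, adjusted p = 0.000146) and by day 21 by 1.85 (SE 0.12, adjusted p = 6.88e-13). The day 21 libraries stayed above all Non-NE libraries, and the changes differed by 3.68 (SE 0.42, adjusted p = 0.000132). Of the other ADAMs without an active site, Adam11 had 3.21, 2.44 and 1.80 CPM in Non-NE and at most 0.388 CPM elsewhere, and Adam23 5.62, 0.244 and 1.80 CPM in Non-NE.

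ADAMTS proteases also moved both ways. Of 19, 12 could be tested in Non-NE, and 8 rose and 4 fell, beside the 20% and 22.8% of all genes. The procollagen N-proteinase genes Adamts2 and Adamts14, whose products trim fibrillar procollagens, were among those that rose. Adamts2 (chr11:50602084-50807573, plus strand) had 0.674, 1.43 and 0.212 CPM in NE libraries and 74.8, 104 and 339 in Non-NE libraries (log2 change 7.77, SE 0.92, adjusted p = 0.000911), with a log2 change of 6.82 without Non-NE replicate 3 and 8.53 without NE replicate 2. In YAP5SA cells it had 1.70 and 1.39 CPM at day 0, 0.978 and 1.11 at day 3, 0.102 and 0 at day 7 and 0.668 and 0.194 at day 21. Its level never exceeded 1.70 CPM there, and the difference of changes was called (adjusted p = 0.000339). Its fall at day 21 (adjusted p = 0.00412) was lost without day 21 replicate 2 (adjusted p = 0.0861).

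Adamts14 had 1 count over the NE libraries, 6.91, 44.3 and 13.1 CPM in Non-NE (adjusted p = 0.00168), and 0.0942 and 0 CPM at day 0, 0.196 and 0.927 at day 3, 4.29 and 4.80 at day 7 and 2.67 and 3.78 at day 21. With 1 count at day 0 as well, the ratio of day 21 to day 0 was 68.9 (95% counting interval 11.95 to 2761, adjusted p = 7.86e-08). Without day 0 replicate 2 it was 34.2, and without day 0 replicate 1, which held that count, day 21 was at least 11.6-fold higher against the floor of 3 counts over the group.

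Adamts10 and Adamts6, whose products bind fibrillin, both rose in Non-NE and differed over the YAP5SA days. Adamts10 (chr17:33524204-33553782, plus strand) had 0.674, 0.110 and 0.529 CPM in NE libraries and 13.5, 36.9 and 38.8 in Non-NE libraries (log2 change 5.99, SE 0.72, adjusted p = 0.000917), then 0.0942 and 0.186 CPM at day 0, 0.685 and 0.741 at day 3, 5.41 and 5.61 at day 7 and 17.5 and 19.97 at day 21. Each day stood above the day before, with a ratio of day 21 to day 0 of 133 (95% counting interval 45.3 to 649, adjusted p = 6.41e-16). Adamts6 had 0, 0.220 and 0 CPM in NE, then 12.04, 31.4 and 27.8 in Non-NE (adjusted p = 0.000863), 0.377 and 0.279 CPM at day 0 and no count at day 21, and the difference of its changes was called (adjusted p = 0.000331).

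Adamts7 and Adamts12, whose products cut cartilage oligomeric matrix protein, both rose in Non-NE. Adamts7 had 3.85, 57.2 and 12.9 CPM there against 0.578, 0.110 and 0 in NE (adjusted p = 0.00943), and 1.24 and 2.13 CPM at day 21 against 0.0942 and 0.0929 at day 0 (adjusted p = 1.85e-05). Adamts12 had no count in NE and 6.58, 7.08 and 8.15 CPM in Non-NE, at least 71.0-fold higher against the floor of 3 counts over the group (adjusted p = 0.00105), or 45.5-fold without NE replicate 1. No YAP5SA library exceeded 0.286 CPM of Adamts12.

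The hyalectanases, which cut aggrecan and versican, were led by Adamts5 (chr16:85856173-85901828, minus strand). It had 66.95, 154 and 72.2 CPM in NE libraries and 20.2, 6.10 and 33.5 in Non-NE libraries. Its YAP5SA libraries had 152 and 141 CPM at day 0, 162 and 135 at day 3, 155 and 158 at day 7 and 112 and 117 at day 21. The fall in Non-NE was 2.31 on the log2 scale (SE 0.65, adjusted p = 0.0265), was -2.92 without Non-NE replicate 3, and lost the call without NE replicate 2 (-1.80, adjusted p = 0.0827) or Non-NE replicate 1 (adjusted p = 0.0701). At day 21 Adamts5 fell by 0.33 (SE 0.08, adjusted p = 0.00099).

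Adamts1 had 6.36, 0.991 and 0.847 CPM in NE against 8.03, 27.3 and 20.7 in Non-NE, and its call (adjusted p = 0.0463) was lost without NE replicate 2 (adjusted p = 0.114), NE replicate 3 (0.101), Non-NE replicate 2 (0.117) or Non-NE replicate 3 (0.0996). In YAP5SA cells it changed late, from 1.13 and 1.21 CPM at day 0 and 0.613 and 1.43 at day 7 to 8.30 and 9.31 at day 21 (log2 change 2.92, SE 0.28, adjusted p = 1.26e-09). Adamts4 had 0.771, 0.551 and 0.529 CPM in NE against 3.85, 7.44 and 19.99 in Non-NE (adjusted p = 0.0052). Adamts8 went from 3.95, 2.31 and 9.74 CPM in NE to no count in Non-NE, at least 42.4-fold lower against the floor of 3 counts over the group (adjusted p = 0.00602), or 25.35-fold without NE replicate 3, 25.6-fold without Non-NE replicate 3 and 27.8-fold without Non-NE replicate 2. It went from 2.54 and 3.53 CPM at day 0 to 0.382 and 0.194 at day 21 (fall of 3.32 on the log2 scale, SE 0.50, adjusted p = 1.82e-06).

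Adamts17 and Adamts18, 2 proteases with roles in the eye, were at or near 0 in Non-NE. Adamts17 (chr7:66839735-67153171, plus strand) had 30.5, 60.4 and 32.5 CPM in NE libraries and 0.161, 0 and 0.106 in Non-NE libraries, where 2 counts remained, and was lower by a ratio of 484 (95% counting interval 134 to 4001, adjusted p = 0.00014), or 318 without Non-NE replicate 2. Over the YAP5SA days it went from 59.4 and 55.5 to 33.5 and 33.9, 21.3 and 24.7 and 22.7 and 24.05 CPM, a fall of 1.27 on the log2 scale at day 21 (SE 0.10, adjusted p = 2.9e-11). Adamts18 had 12.8, 6.06 and 6.03 CPM in NE and no count in Non-NE, at least 67.4-fold lower against the floor of 3 counts over the group (adjusted p = 0.00208), or 40.7-fold and 44.3-fold without Non-NE replicates 3 and 2. Its YAP5SA libraries had 6.31 and 6.97 CPM at day 0, 4.99 and 3.52 at day 3, 2.76 and 3.98 at day 7 and 23.7 and 22.6 at day 21, so that it rose at day 21 (log2 change 1.83, SE 0.16, adjusted p = 2.36e-10) where Non-NE had none. The difference of changes was called for both genes (adjusted p = 1.63e-06 for Adamts17 and adjusted p = 4.82e-05 for Adamts18). Adamts16 had 0.321, 39.4 and 9.94 CPM in Non-NE and at most 0.847 CPM in any other library.

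Of the 5 ADAMTS-like genes 4 rose in Non-NE, beside 20% of all genes higher and 22.8% lower. Adamtsl4 (chr3:95676201-95687917, minus strand), which binds fibrillin, had 1.25, 1.54 and 3.28 CPM in NE libraries and 103, 70.1 and 171 in Non-NE libraries (log2 change 5.79, SE 0.55, adjusted p = 0.000356). It had 1.32 and 1.30 CPM at day 0, 12.8 and 11.5 at day 3, 31.9 and 33.4 at day 7 and 60.2 and 72.4 at day 21 (log2 change 5.67, SE 0.17, adjusted p = 9.41e-20), above the lowest Non-NE library in 1 of the 2 day 21 libraries. Adamtsl3 had 0.771, 0.220 and 1.06 CPM in NE, 127, 47.5 and 87.3 in Non-NE (log2 change 6.93, SE 0.64, adjusted p = 0.000321), 0.188 and 0.743 at day 0, 14.7 and 12.1 at day 7 and 19.5 and 17.7 at day 21. Neither gene had a called difference of changes (adjusted p = 1.0 for Adamtsl4 and adjusted p = 0.304 for Adamtsl3), which does not show that the changes were equal. Adamtsl1 had no count in NE and 9.31, 3.78 and 34.8 CPM in Non-NE (adjusted p = 0.0088). Adamtsl5 had 5.94, 3.17 and 4.23 CPM in Non-NE (adjusted p = 0.0105, 0.0537 without NE replicate 1) and 9.92 and 13.2 CPM at day 21 against 0.942 and 1.30 at day 0 (log2 change 3.37, SE 0.28, adjusted p = 5.51e-11). Adamtsl2 had 18.7, 6.28 and 10.2 CPM in NE against 0.161, 0.976 and 18.1 in Non-NE, with overlap and no call (adjusted p = 0.623), and fell at day 21 by 1.48 on the log2 scale (SE 0.24, adjusted p = 7.59e-06).

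**Figure D4:**
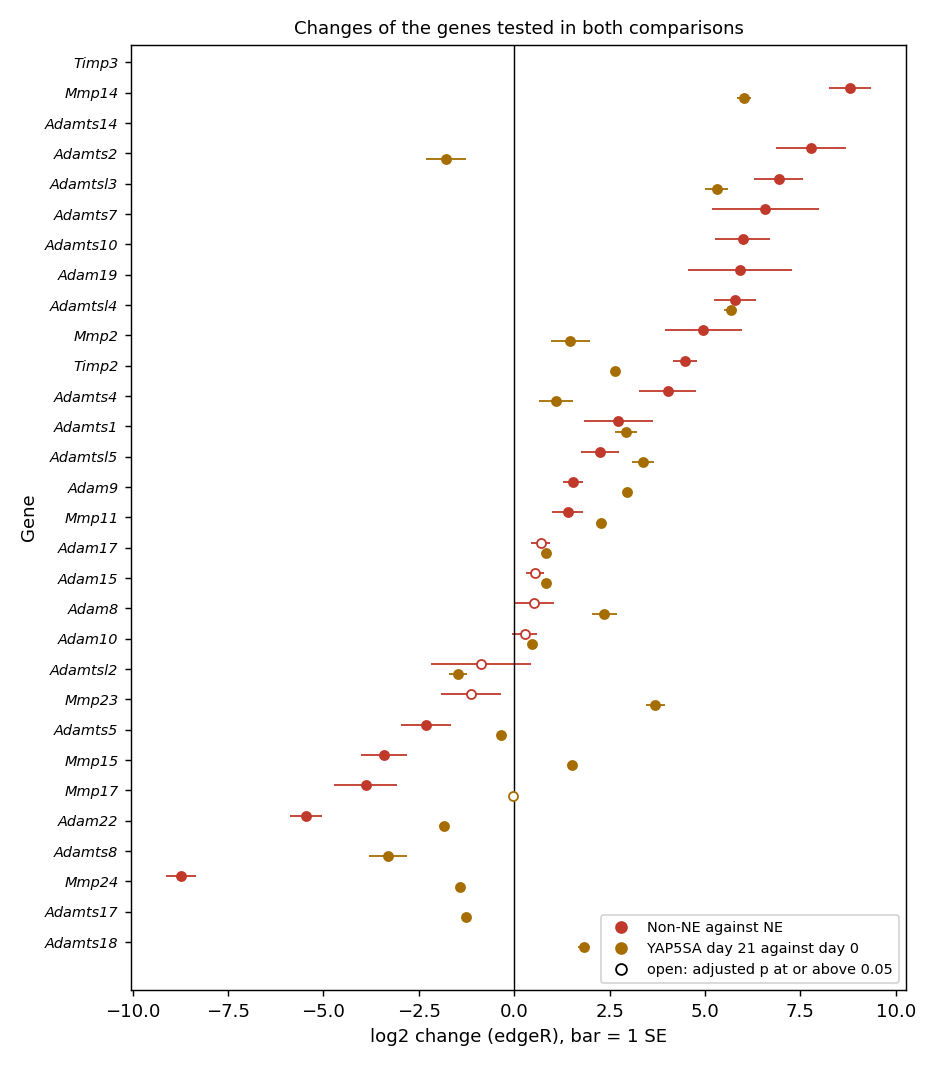
Log2 change with 1 SE of the genes tested in both comparisons, Non-NE against NE (red) and YAP5SA day 21 against day 0 (ochre), ordered by the former, with open symbols where the adjusted p was at or above 0.05 and no symbol where a group held 3 or fewer counts. Timp2 and Adamtsl4 rise in both, while Mmp15 falls in Non-NE and rises at day 21.

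The day 21 libraries were also set directly against the Non-NE libraries, in the fit without NE replicate 2. Of 50 tested genes 12 were higher at day 21 and 23 lower, beside 55.3% of 14820 genes called, 30.8% higher and 24.5% lower. Without either day 21 library, 12 were higher and 13 lower. Over the 13 libraries the 50 genes had a median log2 change of -1.61, against 0.06 over all genes. Genes high in Non-NE alone, such as Timp1 and Adam12, passed the filter of this fit. The counts and the median carry that selection and describe the tested genes only. Cell set and state cannot be told apart here. The 3 tested TIMPs were all lower at day 21, with a log2 change of -7.85 for Timp1 (SE 0.66, adjusted p = 6.57e-06), or -7.21 without Non-NE replicate 3. Adam9 was higher (log2 change 1.01, SE 0.21, adjusted p = 0.00255), as were Mmp15 (log2 change 4.38, SE 0.47, adjusted p = 3.67e-05) and Mmp24 (log2 change 7.36, SE 0.27, adjusted p = 2.81e-08). Adam15, Adam17, Adam10, Mmp11, Adamts10, Adamtsl4 and Adamts1 were not called.

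Summed over each family, the TIMPs held 112 ± 25.8 CPM (SD, n = 3) in NE and 3414 ± 807 (n = 3) in Non-NE, and 121 ± 0.0243 at day 0, 314 ± 15.4 at day 3, 1047 ± 13.5 at day 7 and 807 ± 22.2 at day 21 (n = 2 each). ADAMs held 471 ± 117 CPM in NE, 877 ± 209 in Non-NE, 444 ± 7.97 at day 0 and 1060.0 ± 29.8 at day 21. MMPs held 217 ± 45.3 CPM in NE, 541.5 ± 154 in Non-NE, 187 ± 9.65 at day 0 and 303 ± 25.4 at day 21. ADAMTS proteases held 159.9 ± 59.6 CPM in NE, 349.7 ± 185 in Non-NE, 219.6 ± 10.1 at day 0 and 198 ± 6.93 at day 21. ADAMTS-like genes held 15.3 ± 6.08 CPM in NE, 229 ± 95.9 in Non-NE, 9.91 ± 1.23 at day 0 and 99.3 ± 9.18 at day 21. Timp2 and Timp3 made up 7.60% to 15.5% of the CPM of the set in NE libraries, 51.2% to 71.0% in Non-NE, 12.25% and 12.35% at day 0 and 32.4% to 33.0% at day 21. Sums of CPM follow the most abundant genes.

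**Figure D5:**
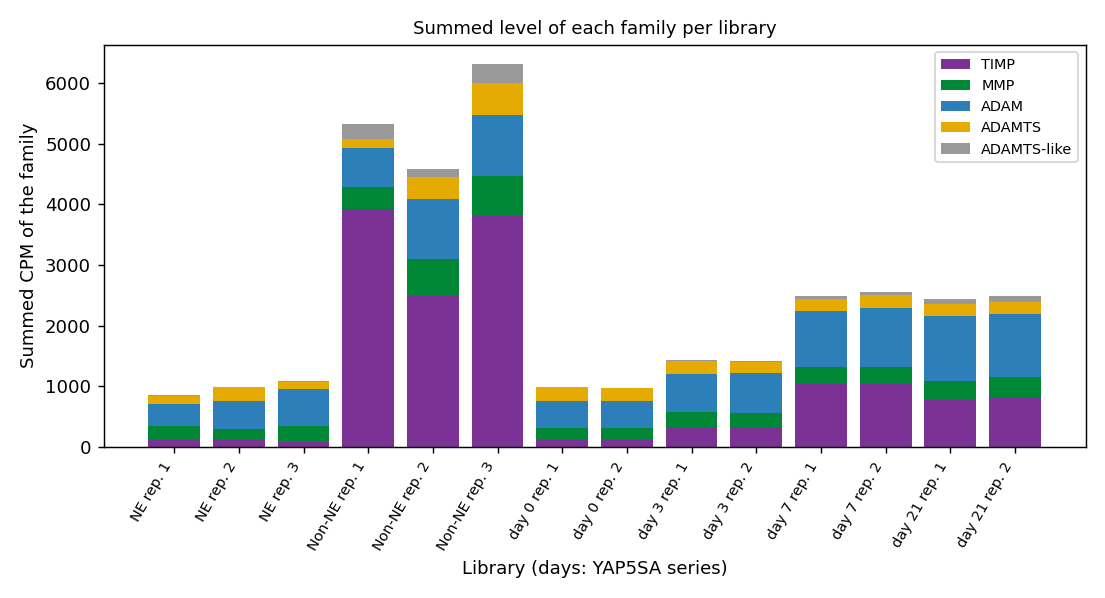
Stacked bars of the summed CPM of each family in each of the 14 libraries. The TIMP part is the largest in all 3 Non-NE libraries, and in the YAP5SA libraries the TIMP and ADAM parts grow from day 0 to day 7.

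Genes that act with these proteases came from lists chosen with earlier results of these data known. Of 33 partners of proteolysis (plasminogen system, proprotein convertases, ADAM regulators and related genes), 24 could be tested in Non-NE and 8 rose and 4 fell, and of 28 at day 21, 20 rose and 7 fell. The serine protease gene Htra1 went from 0.0674 to 407 CPM in mean from NE to Non-NE, a ratio of 6369 (95% counting interval 1763 to 52600), or 3435 without Non-NE replicate 3, and from 0.0929 to 503 CPM from day 0 to day 21. Plaur, the urokinase receptor gene, rose at day 21 (log2 change 6.22, SE 0.16, adjusted p = 2.96e-21). Spock3, a testican gene, had 89.7 CPM in mean in NE and no count in Non-NE, at least 703-fold lower, or 425-fold without Non-NE replicate 3, 462-fold without Non-NE replicate 2 and 463.5-fold without NE replicate 2.

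A list of 30 genes held those whose proteins ADAMs cut and the LGI genes, whose proteins ADAMs bind. Of these, 24 could be tested in Non-NE, with 8 higher and 5 lower, and 27 at day 21, with 22 higher and 1 lower. Without NE replicate 1 or Non-NE replicate 3, 5 were higher and 4 lower in Non-NE, and without day 0 replicate 1, 21 and 2 at day 21. Cd44 had 0.178 CPM in mean in NE and 402 in Non-NE (log2 change 11.03, SE 0.54, adjusted p = 3.29e-05, and 11.76 on the log2 scale without NE replicate 2), and Icam1 1.31 CPM at day 0 and 313 at day 21 (log2 change 7.92, SE 0.17, adjusted p = 4.87e-23). The E-cadherin gene Cdh1 fell in Non-NE by 7.75 on the log2 scale (SE 0.80, adjusted p = 0.000527). Of 24 matrix genes whose proteins are cut, 19 could be tested in Non-NE, with 14 higher and 2 lower, and 17 at day 21, with 14 higher and 3 lower. Col1a2 had 0.525 CPM in mean in NE and 3748 in Non-NE (log2 change 12.74, SE 0.62, adjusted p = 3.09e-05), and the tenascin gene Tnc 94.1 CPM at day 21 with 1 count over day 0. Of 14 AP-1, ETS and RUNX genes all could be tested, 7 rose and 1 fell in Non-NE (7 and 2 without Non-NE replicate 3) and 8 rose and 4 fell at day 21. Fosl1, an AP-1 subunit gene, rose in Non-NE (log2 change 5.36, SE 0.36, adjusted p = 8.34e-05), Runx2 likewise (log2 change 9.71, SE 0.53, adjusted p = 4.47e-05, and 10.86 on the log2 scale without NE replicate 1), and Etv4 rose at day 21 (log2 change 5.67, SE 0.22, adjusted p = 8.14e-18). The share of all genes called is that given above for each comparison.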

How the data were processed

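Per the submitters' processing notes, reads were handled with STAR 2.4.2 and featureCounts on mm10. The deposited table holds raw gene counts per library as whole numbers. The annotation and the strand setting of the counting are not given in the sources used here. Symbols were matched to GENCODE M21 for positions and exon lengths, and promoters came from RefSeq (GRCm38.p6).

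The genes of the set and the partner and marker lists were chosen with earlier results of these data known. Counts were tested with edgeR 4.0.16 in R 4.3.3 (robust quasi-likelihood F test, TMM scaling, filterByExpr) in 3 fits: NE and Non-NE, the 8 YAP5SA libraries, and 13 libraries without NE replicate 2. Calls used a Benjamini-Hochberg adjusted p under 0.05 over all genes tested. A standard error is the log2 change over the square root of F. Every TIMP and every gene with a mean of 5 CPM in a group was named, and genes called without overlap of the groups could be. Up to 3 called genes of each partner list were named by size of change. Mmp3, Mmp9 and Adam23 were chosen after their values were seen. Intervals and floors pool the counts of each group and cover counting error only, without the spread between libraries. Reads carried no molecular identifiers in the sources used here. The fits were tested on simulated counts. Alternatives were DESeq2 1.42.0, limma 3.58.1 (voom), other scalings and filters, the replicate number as a block, all 14 libraries in 1 fit, transcript length for RPKM, and leaving out each library. Part of the genotype that all groups share is not reported here.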

Additional observations from a re-analysis of the deposited data

How the results depend on the processing

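The number of genes of the set called stayed within 1.5 times its main value under every alternative scaling, filter and test and with the replicate number as a block. For the difference of changes DESeq2's test called 10 higher and 11 lower, against 10 and 7 by edgeR. It did not in 1 fit of all 14 libraries, where 5 genes were called at day 3 against day 0, 14 at day 7 against day 0, 7 at day 7 against day 3 and 5 at day 21 against day 7. Beyond counting error, the common coefficient of variation between libraries was 0.0548 in the fit of the 8 YAP5SA libraries. It was 0.399 in the fit of NE and Non-NE and 0.266 in the fit of 13 libraries. The cause of the lower counts was not tested. Leaving out 1 library at a time gave 31 to 34 genes called in Non-NE against NE, 17 to 21 at day 3, 23 to 27 at day 7 and 31 to 34 at day 21 against day 0, 21 to 25 at day 7 against day 3, 19 to 24 at day 21 against day 7, 25 to 37 at day 21 against Non-NE and 12 to 20 for the difference of changes.

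Samples with the same replicate number did not deviate together (correlations of -0.175 to 0.0578), so the numbers were not taken to pair them. With the replicate block, 30 genes were called in Non-NE against NE, 21, 25 and 31 at days 3, 7 and 21 against day 0, 22 at day 7 against day 3, 24 at day 21 against day 7, 34 at day 21 against Non-NE and 23 for the difference.

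Of the named genes called, 27 of 31 were called in every setting in Non-NE against NE, 5 of 19, 14 of 22 and 21 of 29 at days 3, 7 and 21 against day 0, 7 of 21 at day 7 against day 3, 5 of 23 at day 21 against day 7, 21 of 30 at day 21 against Non-NE, and 11 of 16 for the difference. Scaling by library totals put the median log2 change over all genes at -0.28 in Non-NE against NE, at -0.17 and -0.12 at days 7 and 21 against day 0, at -0.12 at day 7 against day 3, at 0.24 at day 21 against Non-NE and at 0.30 for the difference. The calls over all genes went from 2594 higher and 2960 lower to 1930 and 3757 in Non-NE, from 3673 and 3131 to 3222 and 3706 at day 3, from 5273 and 4759 to 4470.0 and 5759 at day 21, from 3654 and 3388 to 4228 and 2855 at day 21 against day 7, from 4565 and 3636 to 5246 and 2845 at day 21 against Non-NE, from 5208 and 4724 to 4149 and 6116 at day 7, from 4128 and 3657 to 3140 and 5076 at day 7 against day 3, and from 3149 and 1715 to 3602 and 1203 for the difference. The calls in the set went from 24 higher and 8 lower to 22 and 8 in Non-NE and from 16 and 9 to 14 and 10 at day 7. With it Mmp24 at day 7 against day 0 turned to -0.0214 (adjusted p = 0.811). Leaving out 1 library moved Adamtsl2 over -1.99 to 1.97 at day 21 against Non-NE and over -0.93 to 3.03 for the difference, with both lowest values without Non-NE replicate 1 and both highest without Non-NE replicate 3 (adjusted p = 0.0241 and 0.0158). By transcript length 75 of 156 RPKM values moved by more than 1 SD. The 2 libraries for each day and few counts per gene near 0 limit what could be detected.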
